A study of Mus musculus with 8 samples.

Results

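The 37 genes of the mouse mitochondrial genome were examined in RNA from primary cultured microglia, brain-resident macrophages, treated with IgG or left without it. The genes were taken as all rows of the count table that lie on chromosome M of the mm10 build in the GENCODE M21 annotation, 37 of the 55385 genes in the table. They comprise 13 mRNA genes, 2 rRNA genes and 22 tRNA genes. Microglia were grown from neocortex and hippocampus of newborn wild-type mice, with the cells of several brains pooled, and were shaken off mixed glial cultures and replated. The IgG group received 10 µg/ml IgG for 24 h at DIV15, and the control group is called untreated in the sample labels and was given PBS according to the methods of the study. There were 4 libraries per group. The control and IgG libraries of one replicate number carry the same date in the labels, so that they form 4 pairs of cultures. The RNA was enriched for poly(A) RNA. The labels do not say that the cultures came from separate litters, so the p-values measure the spread between these cultures.

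Mitochondrial DNA is transcribed from both strands into long precursors, and tRNAs placed between the other genes mark most sites at which the precursors are cut. The heavy-strand precursor gives both rRNAs, most tRNAs and every mRNA but mt-Nd6, which is read from the light strand. The mRNAs encode core subunits of respiratory complexes I, III, IV and V, whereas the other subunits, and all proteins that copy, transcribe and translate mitochondrial DNA, come from nuclear genes. Most of the mRNAs carry short poly(A) tails and are captured on oligo(dT), while rRNAs and tRNAs are captured less, and mt-Nd6 is known to lack such a tail in mammals. In microglia, oxidative phosphorylation and glycolysis are known to shift with the activation state of the cell.

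The compact layout of this genome limits what a count per gene means, and 4 stretches of sequence show the places on which the results turn. Sequences were read from the GENCODE M21 transcripts and are written 5′ to 3′. In all, 16 of the 37 genes overlap another one by at least 1 base. mt-Atp8 and mt-Atp6, subunits of the ATP synthase, lie on a common mRNA, and capitals mark the 43 bases that both genes share (chrM:7766-7969, plus strand). mt-Nd4l and mt-Nd4, subunits of complex I, likewise lie on a common mRNA, and the capitals mark the 7 shared bases in the last 60 bases of mt-Nd4l (chrM:10114-10173, plus strand). The last 60 bases of mt-Co1, the catalytic subunit of complex IV, are at chrM:6813-6872 on the plus strand. The tRNA gene mt-Ts1 lies on the minus strand at chrM:6870-6938, and the capitals in both mark the 3 bases at which they overlap on opposite strands.
mt-Atp8: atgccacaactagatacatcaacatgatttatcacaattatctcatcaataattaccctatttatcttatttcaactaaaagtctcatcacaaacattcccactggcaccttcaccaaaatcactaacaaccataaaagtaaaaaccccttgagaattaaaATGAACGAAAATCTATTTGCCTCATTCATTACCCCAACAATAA
mt-Nd4l: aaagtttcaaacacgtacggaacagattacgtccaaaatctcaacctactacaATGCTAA
mt-Co1 end: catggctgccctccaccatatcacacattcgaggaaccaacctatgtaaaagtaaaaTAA
mt-Ts1: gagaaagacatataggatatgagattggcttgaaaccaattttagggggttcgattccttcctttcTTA
The mt-Co1 transcript is known to run on past its stop codon across the mt-Ts1 gene in antisense. The use of strand in counting is not given in the sources used here, so reads of mt-Ts1 and reads of this extension cannot be told apart. The same holds for the other genes of the minus strand where a precursor of the opposite strand is sequenced.

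Nuclear copies of mitochondrial DNA are the other limit. GENCODE M21 annotates 9 nuclear pseudogenes with at least 100 counts over the 8 libraries that match a mitochondrial mRNA, and they cover 7 of the 13 mRNAs. Of these copies, 7 lie side by side on the minus strand of chromosome 1 and are 99.7% to 100% identical to their source. The other two, Gm13340 and Gm13341, lie on chromosome 2 and are 97.6% and 95.9% identical. A window of 60 bases of mt-Co1 (chrM:6448-6507, plus strand), the stretch in which Gm13340 differs most within the part that both copies hold, is shown with the same window of Gm29216 (chr1:24616071-24616130, minus strand) and Gm13340 (chr2:22588468-22588527, minus strand). Capitals mark bases that differ from mt-Co1.
mt-Co1: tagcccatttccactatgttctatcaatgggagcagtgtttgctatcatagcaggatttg
Gm29216: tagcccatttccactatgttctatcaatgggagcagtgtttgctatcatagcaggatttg
Gm13340: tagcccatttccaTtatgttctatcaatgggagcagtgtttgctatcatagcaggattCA
In this window Gm29216 had no difference from mt-Co1 and Gm13340 had 3. In the count table, the row of Gm10925, a copy of mt-Atp6, held 48822, 44741, 46643 and 44155 counts in control libraries 1 to 4 and 100821, 42569, 109790 and 36181 in IgG libraries 1 to 4. The row of mt-Atp6 itself held 48824, 44730, 46625 and 44191 counts in the controls and 101121, 42574, 109920 and 36192 with IgG. The copy row thus held 99.7% to 100.04% of the count of its source in every library. For Gm28661, Gm28437 and Gm10222, copies of mt-Co2, mt-Co3 and mt-Nd4l, the range was 98.1% to 99.9%, and for Gm28438, the copy of mt-Nd3, it was 104.4% to 105.8%. The less identical Gm13340 and Gm13341 held 0.073% to 0.116% and 0.203% to 0.38% of the count of their source. How reads with several alignments were counted is not given in the sources used here, so the levels of mt-Co1, mt-Co2, mt-Atp6, mt-Co3, mt-Nd3, mt-Nd4l and mt-Nd4 are uncertain. mt-Nd1, mt-Nd2, mt-Atp8, mt-Nd5, mt-Nd6 and mt-Cytb have no such annotated copy with 100 counts. The 43 bases that mt-Atp8 shares with mt-Atp6 are nevertheless part of Gm10925. Only annotated transcripts were searched, so the stretches between the copies on chromosome 1 were not. The levels of mt-Atp8 and of tRNA genes such as mt-Ts1 may therefore be uncertain in the same way.

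The libraries held 21287816 to 23703216 counts. Microglial marker genes summed to 6910 to 7581 CPM (counts relative to TMM-scaled library totals) in the controls and 7650 to 8172 with IgG, of which P2ry12 and Tmem119 reached at most 16.0 and 8.78 CPM. The members of this list did not move alike. Cx3cr1 and Csf1r were highest in IgG libraries 1 and 3, at 623 and 693 CPM and at 1647 and 1744 CPM. Trem2, at 628 and 564 CPM, was below every control there, C1qa, at 1370 and 1444 CPM, was below or near the lowest control, and both were highest in IgG library 4, at 1113 and 2272 CPM. Markers of the oligodendrocyte lineage, led by Mbp, summed to 1121 to 1711 CPM in the controls and 963 to 1608 with IgG. They were lowest in replicates 1 and 3 of both groups, which for the IgG group are the libraries with the highest mitochondrial share below. Markers of border-associated macrophages, nearly all of them from Mrc1, summed to 79.5, 76.5, 82.5 and 57.4 CPM in the controls and to 108, 81.9, 107 and 52.3 CPM with IgG, so that this sum was highest in IgG libraries 1 and 3 and lowest in library 4, as the mitochondrial mRNA share below was. Pf4, the next most abundant of that list, did not follow it, at 4.44, 6.96, 6.38 and 7.83 CPM in IgG libraries 1 to 4. Nor did F13a1, at 0.231, 0.304, 0.540 and 0.728 CPM. Cbr2 did follow it among the IgG libraries, at 2.08, 1.09, 1.13 and 0.956 CPM. For Cbr2, control library 1 lay above IgG library 3, and the other controls lay below every IgG library. Lyve1 and Cd163 stayed at or under 0.225 and 0.135 CPM. Endothelial markers summed to 119 to 161 CPM over all libraries, of which Flt1 made up 118 to 161 CPM, while Cldn5 was at 0 in every library and Pecam1 and Cdh5 reached at most 1.82 and 2.80 CPM. Neuronal markers summed to 15.7 to 35.4 CPM over all libraries, astrocyte markers to 103 to 126 and fibroblast markers to 2.72 to 6.35. The part of these cells in the mitochondrial results was not tested.

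The first comparison asks how much of each library came from the mitochondrial genes. The 13 mRNAs took 2.24%, 2.24%, 2.16% and 2.2% of all counts in control libraries 1 to 4. With IgG they took 4.53%, 2.06%, 5.25% and 1.82%. IgG libraries 1 and 3 lay far above every control, and IgG libraries 2 and 4 lay below every control, so that the IgG values enclosed the control values on both sides. The mean share was 2.21% ± 0.037 (SD, n = 4) in the controls and 3.42% ± 1.73 (SD, n = 4) with IgG. The difference of 1.21 percentage points was not larger than the spread between the libraries (exact permutation test over all 8 libraries, two-sided, p = 0.429, smallest possible p = 0.0286). The 95% Wilson intervals of the shares were at most 0.0096 percentage points to either side and cover counting error only, since the reads carry no molecular identifiers. Within pairs the share changed by 2.02-fold, 0.923-fold, 2.43-fold and 0.828-fold, which an exact sign-flip test over the 4 pairs did not separate from no change (p = 0.5, smallest possible p = 0.125). With IgG libraries 1 and 3 left out, an alternative chosen after the data were seen that keeps all 4 controls and so breaks 2 pairs, the difference was -0.268 percentage points. In such bulk data, more mitochondrial RNA in each cell, more such cells and less nuclear RNA cannot be told apart.

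**Figure D1:**
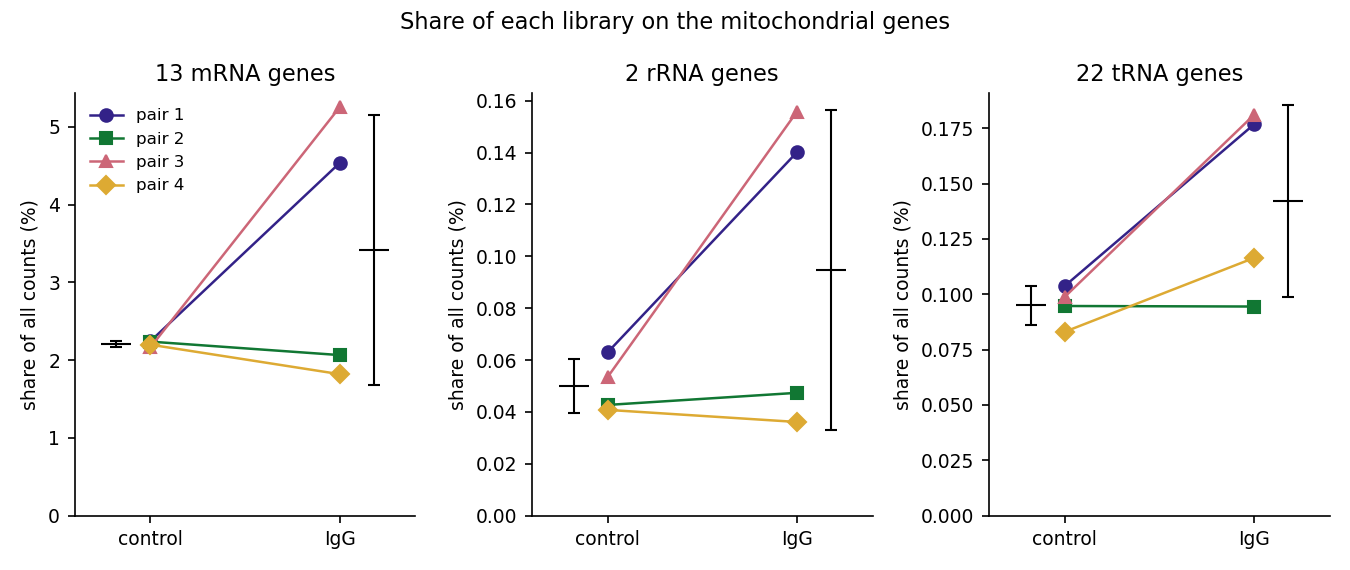
Share of all counts (%) on the mitochondrial mRNA, rRNA and tRNA genes in each library, with lines joining the control and IgG libraries of a pair and bars giving the mean and SD of 4 libraries. Pairs 1 and 3 climb steeply in all panels, while pairs 2 and 4 stay near their controls or lie below them, apart from the tRNA share of pair 4, which is 0.0831% in the control and 0.116% with IgG.

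The rRNAs gave a like picture at a much lower level. Their share was 0.063%, 0.0427%, 0.0534% and 0.0408% in the controls and 0.14%, 0.0474%, 0.156% and 0.0361% with IgG. IgG libraries 1 and 3 were again above every control, library 2 lay among the controls and library 4 below them. The mean was 0.05% ± 0.0103 (SD, n = 4) in the controls and 0.0948% ± 0.0618 (SD, n = 4) with IgG (exact permutation test, two-sided, p = 0.343). Relative to the mRNAs, the rRNA count was 2.81%, 1.91%, 2.47% and 1.86% in the controls and 3.09%, 2.29%, 2.97% and 1.99% with IgG. This ratio was higher with IgG in every pair, by 0.14, 0.27, 0.26 and 0.10 on the log2 scale. The mean difference was 0.19 in the log2 ratio (0.097 without IgG replicate 1, 0.104 without control replicate 4, 0.117 without control replicate 2 or IgG replicate 3, 0.303 without control replicate 1 and 0.310 without IgG replicate 4), with p = 0.371 in the exact permutation test and p = 0.125 in the exact sign-flip test, which is the smallest p that 4 pairs can give. With IgG libraries 1 and 3 left out and all 4 controls kept, the difference between the group means was -0.06, although the ratio was higher with IgG in pairs 2 and 4.

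Among the mRNA genes, counts per length differed widely in the controls. On the scale of CPM per kb, after TMM scaling, mt-Co1 stood highest at 4829 ± 115 (SD, n = 4), followed by mt-Atp8 at 4048 ± 138, mt-Atp6 at 2899 ± 84.5 and mt-Co2 at 2842 ± 110. The last 2 in this order overlapped within their spread. mt-Co3, a further subunit of complex IV, was at 2169 ± 88.8, mt-Nd4l at 1585 ± 91.0, mt-Nd1 at 1398 ± 60.2 and mt-Cytb, the complex III subunit, at 1369 ± 61.0. mt-Nd1 and mt-Cytb did not differ beyond their spread. The other complex I subunits were at 1143 ± 43.3 for mt-Nd4, 776 ± 42.1 for mt-Nd6, 719 ± 12.8 for mt-Nd5, 632 ± 16.9 for mt-Nd2 and 425 ± 38.5 for mt-Nd3. mt-Rnr1 and mt-Rnr2, the RNAs of the small and the large mitochondrial ribosomal subunit, stood at 245 ± 61.4 and 158 ± 28.9 CPM per kb after rRNA removal and poly(A) enrichment. This order of counts per length thus placed the complex IV and V subunits above every complex I subunit. mt-Atp8 and mt-Atp6 lie on a common mRNA, as do mt-Nd4l and mt-Nd4, so their different values cannot be read as different mRNA levels. The uncertainty from nuclear copies given above also holds for this order.

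**Figure D2:**
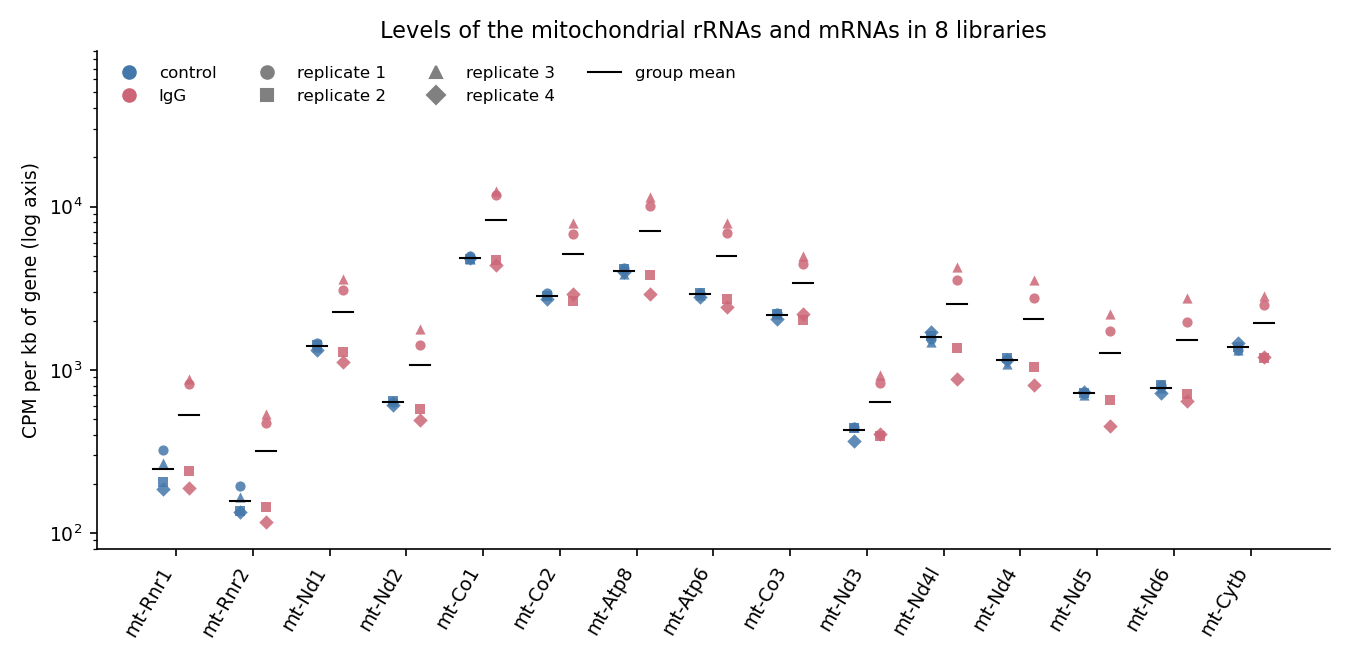
Levels of the 2 rRNAs and 13 mRNAs in CPM per kb of gene (log axis) in each library, with the replicate number as the symbol and the group mean as a bar. The control libraries of each mRNA lie close together, while IgG replicates 1 and 3 lie above them and IgG replicates 2 and 4 lie at or under them.

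The complex IV mRNAs show the pattern of the whole set in IgG libraries 1 to 3. IgG library 4 lay below every control in 10 of the 13 mRNAs, and among the complex IV mRNAs only in mt-Co1. mt-Co1 was at 7715, 7357, 7323 and 7450 CPM in the controls and at 18235, 7217, 19119 and 6762 CPM with IgG. The IgG libraries fell on both sides of the control range. edgeR's quasi-likelihood test gave a log2 fold change of 0.78 ± 0.33 (SE) with an adjusted p = 0.692. mt-Co2 was at 2030, 1949, 1951 and 1846 CPM in the controls and at 4675, 1814, 5456 and 2000 CPM with IgG. IgG library 4 lay within the controls here, and the log2 fold change was 0.84 ± 0.33 (edgeR adjusted p = 0.692). mt-Co3 was at 1758, 1725, 1718 and 1599 CPM in the controls and at 3501, 1578, 3920 and 1727 CPM with IgG, with a log2 fold change of 0.66 ± 0.28 (edgeR adjusted p = 0.692). For each of the 3 genes, IgG libraries 1 and 3 were the highest of all 8.

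The ATP synthase mRNAs were spread in the same way as mt-Co1. mt-Atp6, the channel subunit, was at 2025, 2017, 1952 and 1903 CPM in the controls and at 4675, 1851, 5395 and 1647 CPM with IgG. mt-Atp8, an accessory subunit that shares its mRNA, was at 851, 846, 792 and 814 CPM in the controls and at 2056, 777, 2343 and 590 CPM with IgG. Both had IgG libraries 1 and 3 above and 2 and 4 below every control. The log2 fold changes were 0.78 ± 0.35 and 0.80 ± 0.38 (SE, edgeR adjusted p = 0.692 for both). mt-Cytb was at 1521, 1572, 1510 and 1663 CPM in the controls and at 2835, 1358, 3239 and 1378 CPM with IgG. It had the smallest log2 fold change of the 13 mRNAs, 0.49 ± 0.27 (edgeR adjusted p = 0.693).

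The complex I mRNAs covered the widest range of changes. mt-Nd5, a proton-pumping subunit, was at 1322, 1316, 1278 and 1331 CPM in the controls and at 3148, 1191, 4027 and 827 CPM with IgG. IgG library 4 was the lowest of all 8 libraries, well under its control. mt-Nd4l was at 460, 477, 442 and 505 CPM in the controls and at 1049, 406, 1273 and 262 CPM with IgG, again with library 4 lowest. mt-Nd6, the single light-strand mRNA, was at 420, 417, 401 and 372 CPM in the controls and at 1023, 371, 1428 and 336 CPM with IgG. Its log2 fold change of 0.97 ± 0.41 was the largest of the 13 mRNAs (edgeR adjusted p = 0.692). mt-Nd3 was at 156, 153, 156 and 128 CPM in the controls and at 288, 136, 323 and 140 CPM with IgG, so that IgG libraries 2 and 4 lay inside the control range. mt-Nd1, mt-Nd2 and mt-Nd4 had IgG libraries 2 and 4 below every control, with log2 fold changes of 0.70, 0.75 and 0.83. The 6 mRNAs with no annotated copy had log2 fold changes between 0.49 and 0.97, and the 7 with a copy between 0.58 and 0.84.

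Over all 37 genes, 37 passed the filter on low counts and 37 had a fitted log2 fold change above 0. None passed an adjusted p-value of 0.05 in the quasi-likelihood test of edgeR, where 0% of the 17537 genes tested passed, and the lowest adjusted p of a member was 0.692. At an unadjusted p under 0.05 there were 16 members, against 7.01% of all genes tested. That count of 16 was 5 with total counts alone (7.07% of all genes). It was 1 in each fit without control replicate 2 (673 of 17772 genes), control replicate 4 (699 of 17749), IgG replicate 1 (704 of 17825) or IgG replicate 3 (617 of 17804). It was 30 without IgG replicate 4, where 4126 of 17775 genes had such a p, against 1230 of 17537 in the main fit. With IgG libraries 1 and 3 left out that count was 9, beside 1151 of 18156 genes tested. The 7 mRNAs among these 9 members were lower with IgG. DESeq2 called 0 members at an adjusted p under 0.05, where 0.222% of its genes were called. The criterion of the study, an unadjusted p under 0.01 with an absolute log2 fold change above 0.5, was met by 1 member, mt-Ts1, and by 0.844% of all genes. mt-Ts1 met it in 3 of 12 fits that each left out a library or a pair. With the pair entered as a replicate block, 0 members passed the adjusted threshold (0.393% of all genes), 17 had an unadjusted p under 0.05 (10.2%) and 6 met the criterion (1.82%). Those 6 were tRNA genes, mt-Ti, mt-Ta, mt-Tn, mt-Tc, mt-Ty and mt-Ts1, with block-adjusted p between 0.227 and 0.289 in edgeR. The members share precursors, so their counts are not 37 separate results. The median log2 fold change of the 13 mRNAs was 0.78, beside 0.00 for all genes tested, 0.54 with the block and -0.20 with IgG libraries 1 and 3 left out. In no member were the 4 IgG libraries all above the 4 controls, a state found in 2.6% of all genes tested.

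The spread of the mRNAs ranked low among all genes tested in the controls and high in the IgG group. In the controls the median SD of log2 CPM over the 13 mRNAs was 0.06, and their median position among all genes tested was the percentile 16.2. In the IgG group the median SD was 0.89 at the percentile 96.3, beside a median of 0.28 for all genes tested. mt-Nd5 had the lowest control SD of the 13, 0.03, and an IgG SD of 1.10. The control cultures were therefore close in mitochondrial mRNA across 4 dates, and the IgG cultures of the same dates were not. This is a description of 4 libraries per group. The control percentiles of the 13 mRNAs ran from 2.64 to 51.9. Those of the rRNAs and tRNAs had medians of 79.8 and 72.6, so the low control spread was not shared by the whole genome. The mRNAs had mean levels of 185 to 10147 CPM, and the genes they were ranked against were not matched on level.

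Within pairs, the mRNAs moved together. Their median log2 change was 1.2 in pair 1, -0.15 in pair 2, 1.47 in pair 3 and -0.24 in pair 4, while the median of all genes tested lay between 0.00 and 0.02. All 13 were higher with IgG in pairs 1 and 3, 0 of 13 were higher in pair 2 and 3 of 13 were higher in pair 4. The ranges were 0.89 to 1.28 in pair 1, -0.23 to -0.03 in pair 2, 1.05 to 1.83 in pair 3 and -0.95 to 0.13 in pair 4. Scaling by total counts alone moved the median of all genes by -0.16 in pair 1 and by -0.15 in pair 3, and the medians of the mRNAs were then 1.04, -0.16, 1.32 and -0.31.

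**Figure D3:**
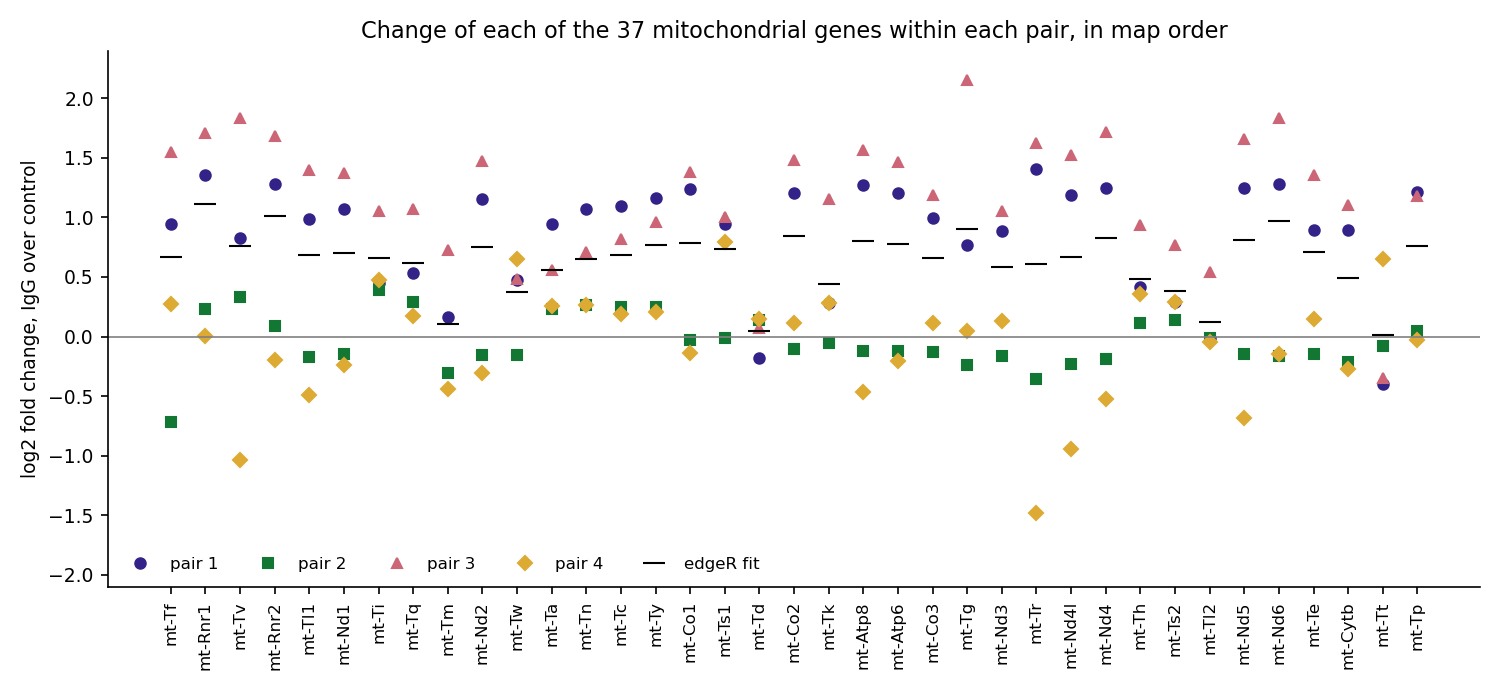
Log2 fold change of IgG over control for each of the 37 genes in each pair, in their order along the mitochondrial genome, with the edgeR estimate as a black bar. Most genes of pairs 1 and 3 lie near or above 1, those of pair 2 lie near 0, and those of pair 4 run from -1.48 at mt-Tr to 0.80 at mt-Ts1.

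GC content and length moved with these changes. The mRNAs have GC contents of 31.9% to 41.1%, and the 1618 nuclear genes tested in that range had median log2 changes of 0.29, 0.02, 0.30 and -0.21 in pairs 1 to 4. Across 17466 nuclear genes the Spearman correlation of the change with GC content was -0.38, -0.03, -0.38 and 0.31, and with exon length it was 0.22, -0.03, 0.21 and -0.35. Pairs 1 and 3 thus had higher values in AT-rich and long genes, and pair 4 the reverse. After trends on GC content and length were removed, the median log2 fold change of the mRNAs was 0.58, and 0.45 with the block. The part of GC content and length in the change of the mRNAs was otherwise not tested.

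The make-up of the mitochondrial mRNA pool also differed between libraries. mt-Co1 made up 34.9% ± 0.48 (SD, n = 4) of the mRNA counts in the controls and 35.9% ± 1.45 with IgG, and mt-Nd6 made up 1.88% ± 0.080 and 2.07% ± 0.32. The share of mt-Nd6 was 1.92%, 1.94%, 1.91% and 1.76% in the controls and 2.06%, 1.86%, 2.52% and 1.83% with IgG. IgG libraries 1 and 3 stood above every control, library 3 by the most, and the difference of 0.184 percentage points was not larger than the spread (exact permutation test, two-sided, p = 0.343). Without IgG replicate 3 the difference was 0.033 percentage points. With the 7 mRNAs that have a nuclear copy left out of the pool, the difference of the mt-Nd6 share was 0.947 percentage points (exact permutation test, two-sided, p = 0.0857). Relative to the sum of the mRNAs, pair 1 and pair 3 changed alike: mt-Cytb was lower by log2 changes of -0.28 and -0.33, mt-Nd3 by -0.29 and -0.38 and mt-Co3 by -0.19 and -0.24, while mt-Nd6 was higher by 0.10 and 0.40. Over the 13 genes the relative changes of these 2 pairs correlated at r = 0.91, a description over genes that share libraries and precursors. Pair 4 had the widest spread of relative changes, from -0.75 for mt-Nd4l and -0.49 for mt-Nd5 to 0.33 for mt-Nd3, 0.32 for mt-Co2 and 0.31 for mt-Co3. Pair 2 had the narrowest, from -0.13 to 0.08.

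Counts of parts of a transcript were also compared. The rows of Gm29216 and Gm28439 were read here as parts of mt-Co1 and mt-Nd4. This assumes that they hold the reads of those genes, which is open because the counting of reads with several alignments is not given. Gm29216 matches the last 483 bases of mt-Co1, and its row held 23.6%, 24.3%, 24.9% and 23.1% of the mt-Co1 count in the controls and 23.5%, 24.4%, 25.2% and 32.0% with IgG. IgG library 4 stood apart, with more counts toward the 3′ end. Gm28439 matches the first 876 bases of mt-Nd4, and its row held 59.7%, 57.8%, 58.6% and 59.7% of the mt-Nd4 count in the controls and 64.8%, 58.6%, 64.9% and 48.1% with IgG. IgG library 4 was lowest here and IgG libraries 1 and 3 were highest, so the 5′ part weighed less in the former and more in the latter. mt-Nd4l, which lies before mt-Nd4 on their mRNA, had 28.7%, 29.3%, 29.7% and 31.8% of the mt-Nd4 count in the controls and 27.7%, 28.4%, 26.0% and 23.7% with IgG. mt-Atp8, which lies before mt-Atp6, had 42.1%, 41.9%, 40.5% and 42.8% of the mt-Atp6 count in the controls and 44.0%, 42.0%, 43.4% and 35.8% with IgG. In all 4 measures IgG library 4 had relatively fewer counts at the 5′ side than every other library. The count of mt-Nd4l relative to mt-Nd4 was also lower with IgG in every pair, by differences of -1.04, -0.896, -3.64 and -8.11 percentage points, and every IgG library lay below every control, which was not so for the other 3 measures. In libraries 1 and 3 this ran against the first part of mt-Nd4, whose share was higher there. RNA integrity values were not used here, and the part of such a shift along the transcript in the gene counts was not tested.

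**Figure D4:**
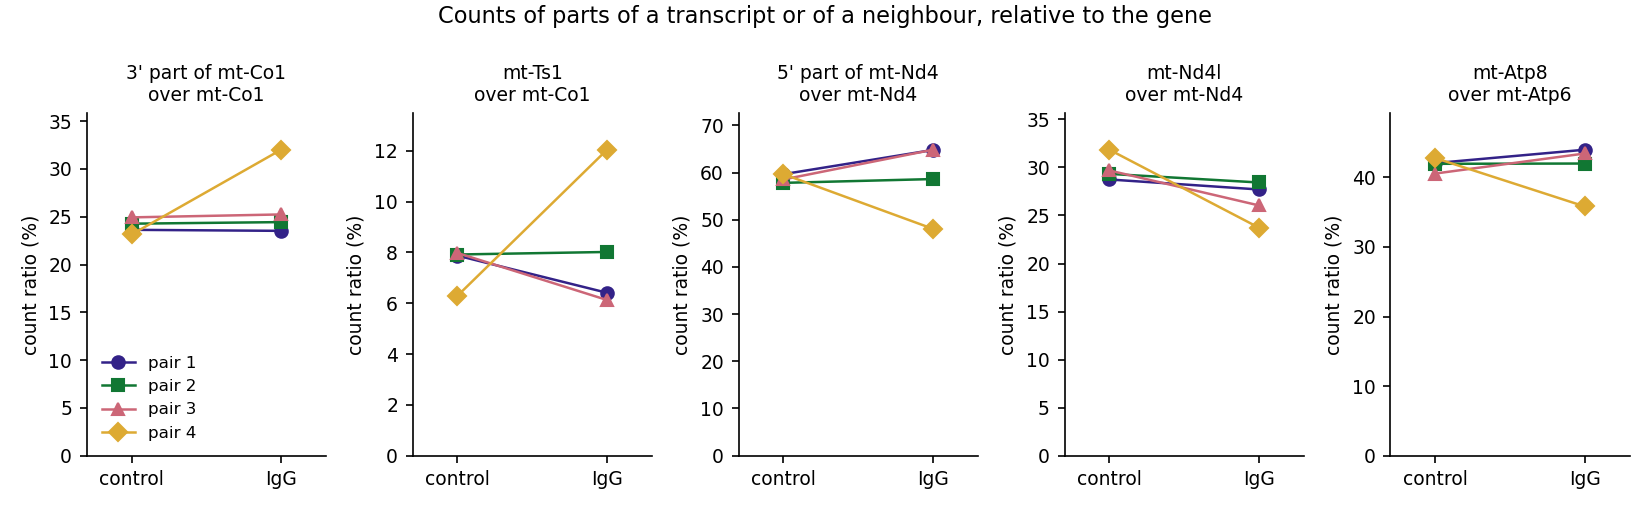
Count ratios (%) of a part of a transcript, or of the neighbour on the same RNA, to the whole gene, with lines joining the control and IgG libraries of a pair. Pair 4 moves from 23.1% to 32.0% for the 3′ part of mt-Co1 and from 59.7% to 48.1% for the 5′ part of mt-Nd4, so that its counts lie further toward 3′ ends.

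The rRNA genes had the largest fitted changes of the longer genes. mt-Rnr1 was at 307, 195, 255 and 179 CPM in the controls and at 784, 229, 833 and 179 CPM with IgG. mt-Rnr2 was at 309, 215, 264 and 213 CPM in the controls and at 750, 229, 848 and 185 CPM with IgG. IgG libraries 1 and 3 stood above every control for both, and the controls themselves varied more than for the mRNAs. The log2 fold changes were 1.11 ± 0.46 and 1.01 ± 0.45 (SE, edgeR adjusted p = 0.692 for both). mt-Rnr1 was higher with IgG in 4 of 4 pairs under TMM scaling, with log2 changes of 1.35, 0.23, 1.71 and 0.01, and in 3 of 4 under total counts, where pair 4 gave -0.07. Reads of rRNA were depleted before sequencing, and the part of that step in these values was not tested.

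The tRNA rows held 0.0951% ± 0.0088 (SD, n = 4) of all counts in the controls and 0.142% ± 0.0434 with IgG. Mature tRNAs are short, folded and modified and have no long poly(A) tail, so counts in these rows can come from precursors or from transcripts that run through the gene, which cannot be told apart here. mt-Ts1, a serine tRNA gene, held 58.8% to 64.1% of the tRNA counts in the controls and 59.9% to 69.4% with IgG. The row of mt-Ts1 was at 607, 583, 584 and 469 CPM in the controls and at 1169, 579, 1171 and 814 CPM with IgG. IgG libraries 1, 3 and 4 were above every control, and library 2 lay among them. Its log2 fold change was 0.74 ± 0.21 with an unadjusted p = 0.00573 (edgeR adjusted p = 0.692), and 0.69 ± 0.17 with the block (edgeR adjusted p = 0.227). Relative to mt-Co1, whose end it overlaps, the mt-Ts1 count was 7.87%, 7.92%, 7.98% and 6.29% in the controls and 6.41%, 8.02%, 6.13% and 12.0% with IgG. The high value of library 4 goes with its high share of counts in the 3′ part of mt-Co1, and the 2 rows cannot be separated without strand.

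The next most abundant tRNA rows in the controls were mt-Te, mt-Tc, mt-Tn, mt-Tl1, mt-Ty and mt-Ta, all but mt-Tl1 on the minus strand. mt-Te, a glutamate tRNA gene beside mt-Nd6, was at 116, 110, 110 and 87.6 CPM in the controls and at 215, 99.2, 280 and 97.3 CPM with IgG. mt-Tc, a cysteine tRNA gene, was at 44.3, 30.1, 42.3 and 38.8 CPM in the controls and at 95.1, 35.7, 74.9 and 44.2 CPM with IgG. mt-Ty, a tyrosine tRNA gene, was at 40.3, 25.7, 37.1 and 32.9 CPM in the controls and at 90.4, 30.6, 72.5 and 37.9 CPM with IgG. For mt-Tc and mt-Ty the IgG value exceeded the control value of its own pair each time, although the groups overlapped. In all, 9 of the 37 genes were higher with IgG in all 4 pairs, beside 10.4% of all genes tested. These were mt-Rnr1 and 8 tRNA genes: mt-Ti, mt-Tq, mt-Ta, mt-Tn, mt-Tc, mt-Ty, mt-Th and mt-Ts2. None of the 13 mRNAs was among them. Of the 8 tRNA genes, mt-Ta, mt-Tn, mt-Tc and mt-Ty lie side by side on the minus strand between mt-Nd2 and mt-Co1, and mt-Tq lies on the minus strand before mt-Nd2. Under total-count scaling the 8 tRNA genes were again higher in all 4 pairs. mt-Tn, an asparagine tRNA gene of this cluster, had a log2 fold change of 0.58 ± 0.15 with the block (edgeR adjusted p = 0.240).

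mt-Tl1, a leucine tRNA gene between mt-Rnr2 and mt-Nd1 on the plus strand, was at 41.0, 33.2, 35.2 and 30.2 CPM in the controls and at 81.3, 29.6, 92.6 and 21.4 CPM with IgG. mt-Tp, a proline tRNA gene on the minus strand, was at 16.1, 14.7, 16.8 and 14.1 CPM in the controls and at 37.4, 15.2, 38.2 and 13.8 CPM with IgG. Both had IgG libraries 1 and 3 above every control and library 4 below every control, as the mRNA share did. Other tRNA rows were sparse. mt-Tf, mt-Tv, mt-Tt, mt-Tr, mt-Tg and mt-Tk had mean levels of 0.42 to 2.21 CPM in the controls. mt-Tt was at 1.49, 2.07, 1.47 and 1.42 CPM in the controls and at 1.11, 1.96, 1.13 and 2.28 CPM with IgG, lower in IgG libraries 1 and 3 and higher in library 4, the reverse of the mRNAs. mt-Td, mt-Tm and mt-Tl2 had log2 fold changes of 0.05, 0.10 and 0.12. The median was 0.46 on the log2 scale over the 14 tRNA genes of the plus strand and 0.70 over the 8 of the minus strand. Of the 22 tRNA genes, 9 had an unadjusted p under 0.05 without the block, where 7.01% of all genes tested had one, and 12 with it, where 10.2% had one. The count of 9 was 4 with total counts alone, where 7.07% of all genes tested had such a p. It was 1 without control replicate 2 (673 of 17772 genes), control replicate 4 (699 of 17749), IgG replicate 1 (704 of 17825) or IgG replicate 3 (617 of 17804). It was 15 without IgG replicate 4, where 4126 of 17775 genes had such a p.

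The nuclear partners of these genes were mostly lower with IgG in pairs 1 and 3 and mostly higher in pair 4, the reverse of the mitochondrial mRNAs. The 78 nuclear subunits of complexes I to V in the list had a median of -0.01 on the log2 scale, beside 0.00 for all genes tested, with 33 of 78 above 0. No subunit passed the adjusted threshold in edgeR with or without the block, and at an unadjusted p under 0.05 there were 4 higher and 0 lower, near the 4.83% of all genes tested that were higher and the 2.18% that were lower at that p. This balance over all genes turned with the scaling, to 2.13% higher and 4.94% lower with total counts alone, where 0 subunits were higher and 0 lower. Within pairs their median changes were -0.22, -0.02, -0.33 and 0.38, with 19, 29, 18 and 77 of the 78 higher with IgG in pairs 1 to 4. The sum of their levels was 5883, 6100, 6122 and 5948 CPM in the controls and 5407, 6064, 5410 and 7507 CPM with IgG. IgG libraries 1 and 3 had the lowest sums and the highest mitochondrial mRNA, and IgG library 4 had the highest sum and the lowest mitochondrial mRNA. Under total-count scaling the pair medians were -0.38, -0.03, -0.49 and 0.31, of the same sign in each pair. The nuclear subunits are short, with a median exon length of 1697 bases against 3675 for all genes tested, and length moved with the change as given above. The part of length in this was not tested.

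**Figure D5:**
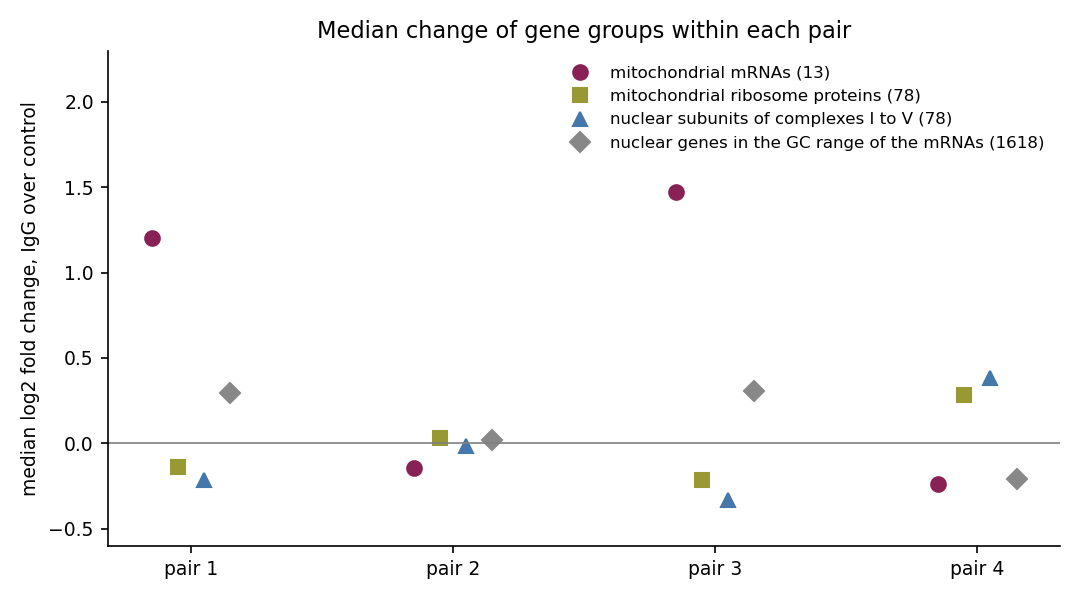
Median log2 fold change of IgG over control within each pair for the 13 mitochondrial mRNAs, the 78 mitochondrial ribosome proteins, the 78 nuclear subunits of complexes I to V and the 1618 nuclear genes in the GC range of the mRNAs. In pairs 1 and 3 the mitochondrial mRNAs stand at 1.2 and 1.47 while the nuclear subunits stand at -0.22 and -0.33, and in pair 4 the 2 groups lie at -0.24 and 0.38.

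By complex, the nuclear medians were -0.01 for the 37 subunits of complex I, 0.12 for the 4 of complex II, -0.04 for the 9 of complex III, -0.04 for the 11 of complex IV and 0.01 for the 17 of complex V. Complex II, succinate dehydrogenase, is the one without a mitochondrially encoded subunit. Its subunits Sdhb and Sdhc had log2 fold changes of 0.21 ± 0.08 and 0.18 ± 0.08 (edgeR adjusted p = 0.692 for both), and Sdha and Sdhd 0.06 and -0.13. In complex I, Ndufv2 and Ndufa10 had the largest positive values, 0.23 and 0.20, and Ndufa3 and Ndufa12 the lowest, -0.25 and -0.24. Ndufa3 changed by -1.47, 0.03, -1.45 and 0.76 in the 4 pairs. In complex III, Uqcr11 and Uqcrh were lowest at -0.28 and -0.14, and the core proteins Uqcrc2 and Uqcrc1 were highest at 0.17 and 0.16. In complex IV, Cox5b and Cox6b1 were lowest at -0.18 and -0.14 and Cox7a2 and Cox5a highest at 0.07 and 0.05. All 11 nuclear subunits of complex IV were lower with IgG in pairs 1 and 3 and higher in pair 4. The mitochondrial subunits were higher in pairs 1 and 3, while in pair 4 mt-Co1 had a log2 change of -0.14 and mt-Co2 and mt-Co3 had 0.12 and 0.11, the same sign as the nuclear subunits. In complex V, Atp5k and Atp5g3 were lowest at -0.39 and -0.25 and the catalytic core subunits Atp5a1 and Atp5c1 highest at 0.14 and 0.12. Atp5k changed by -2.16, 0.11, -2.69 and 0.90 in the 4 pairs.

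None of the genes that copy, transcribe and process mitochondrial DNA and RNA passed the adjusted threshold in edgeR, with or without the block. Of the 19 genes for maintenance and transcription of mitochondrial DNA, 0 had an unadjusted p under 0.05, and the log2 fold changes ran from -0.54 to 0.44 with a median of 0.02. Among those with a mean of at least 10 CPM, Polg2, the accessory subunit of the mitochondrial DNA polymerase, and Mgme1, a nuclease of mitochondrial DNA, were highest at 0.36 ± 0.17 and 0.20 ± 0.10, and Rnaseh1 and Ssbp1 lowest at -0.28 and -0.14. The 9 regulators of mitochondrial biogenesis had a median of -0.11, and none had an unadjusted p under 0.05. With total counts alone their median was -0.21, and 0 were higher and 2 lower at that p. All genes tested had 2.13% higher and 4.94% lower under that scaling. Among the regulators with a mean of at least 10 CPM, Gabpb1 and Yy1 were highest at 0.11 and 0.07, and Esrra and Myc lowest at -0.28 and -0.11. The 35 genes of mitochondrial RNA processing and stability had a median of 0.11, with 2 higher and 0 lower at an unadjusted p under 0.05, and 1 higher and 0 lower with total counts alone (for all genes tested, 4.83% higher and 2.18% lower with TMM and 2.13% and 4.94% with total counts). Ptcd2, a pentatricopeptide repeat protein of mitochondrial RNA, was at 13 ± 1.2 CPM in the controls and 18.9 ± 2.86 CPM with IgG, a log2 fold change of 0.54 ± 0.13 (edgeR unadjusted p = 0.0019, adjusted p = 0.634, and adjusted p = 0.165 with the block). It thus met the criterion of the study, as 0.844% of all genes did. It was higher in 4 of 4 pairs, by 0.65, 0.35, 0.78 and 0.36. Pnpt1, a ribonuclease of mitochondria, was at 0.33. Among the RNA processing genes with a mean of at least 10 CPM, Rpusd4 and Alkbh1 were lowest at -0.19 and -0.11.

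The 78 proteins of the mitochondrial ribosome, which translates the 13 mRNAs, had a median of 0.00, with 5 higher and 0 lower at an unadjusted p under 0.05 (4.83% and 2.18% of all genes tested), and 3 higher and 0 lower with total counts alone (2.13% and 4.94%). Mrpl1 and Mrpl45 were highest at 0.62 ± 0.24 and 0.48 ± 0.13 (edgeR adjusted p = 0.692 and 0.673), and Mrpl14 and Mrpl34 lowest at -0.33 and -0.31. In the pairs, 21, 46, 17 and 73 of the 78 were higher with IgG, close to the order of the nuclear respiratory subunits. The 20 markers of mitochondrial membranes and matrix had a median of 0.12, with 3 higher and 0 lower at an unadjusted p under 0.05, where all genes tested had 4.83% and 2.18%, and 0 higher and 1 lower with total counts alone, where all genes had 2.13% and 4.94%. Tspo, an outer membrane protein known to be abundant in microglia, was at 116 ± 15.9 CPM in the controls and 144 ± 7.42 CPM with IgG (log2 fold change 0.31 ± 0.11, edgeR adjusted p = 0.692), Vdac3, an outer membrane channel, was at 0.29, and Tomm40 and Slc25a4 were lowest at -0.14 and -0.08. The summed level of these markers was 2273 to 2349 CPM in the controls and 2603, 2340, 2585 and 2532 CPM in IgG libraries 1 to 4. Of the 13 mitophagy genes 12 were tested, with a median of 0.07 and none at an unadjusted p under 0.05. Among the mitophagy genes with a mean of at least 10 CPM, Tax1bp1 and Bnip3 were highest at 0.26 and 0.25, and Pink1 and Nbr1 lowest at -0.11 and -0.05.

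RNAs chosen to report on library make-up differed in the same libraries. Of 17 nuclear RNAs listed as lacking a poly(A) tail, 11 were tested, with a median log2 fold change of -0.22 and pair medians of -0.60, -0.22, -0.37 and 0.23. At an unadjusted p under 0.05 there were 0 higher and 1 lower, and 0 higher and 2 lower with total counts alone. For all genes tested the shares were 4.83% higher and 2.18% lower with TMM, and 2.13% and 4.94% with total counts. The histone genes Hist1h1c and Hist1h2bc, the members with at least 10 CPM, were at -0.22 and -0.05. Whether their reads came from RNA with a poly(A) tail was not tested. The 6 long RNAs retained in the nucleus had a median of -0.33, with pair medians of -0.92, 0.01, -0.61 and -0.28. Neat1, a scaffold of nuclear paraspeckles, had pair changes of -2.30, -0.13, -2.0 and 0.16, and Malat1, a nuclear speckle RNA, had -0.59, 0.13, -0.19 and -0.59. Xist, the RNA that coats the inactive X chromosome, had 0.11, 0.09, -0.06 and -0.98. Neat1 was far lower in pairs 1 and 3, in which the mitochondrial mRNAs were higher, whereas Xist was near 0 in those pairs and far lower in pair 4, and Malat1 was as low in pair 4 as in pair 1. The part of these differences in the mitochondrial shares was not tested.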

How the data were processed

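RNA sequencing of primary cultured mouse microglia gave 8 libraries, 4 per group. The authors' deposited table holds whole-number read counts per Ensembl gene with no normalization. The methods describe poly(A) enrichment, rRNA removal, removal of low-quality reads and alignment to mm10 with HISAT2, and the submitters' processing notes list HISAT2 2.2.1, SAMtools 1.12, Picard 2.26.3, featureCounts, R 4.1.2 and edgeR 3.36.0. The annotation, the strand setting and the handling of reads with several alignments are not given in the sources used here. Names, positions and sequences came from GENCODE M21, which held 55144 of the 55385 identifiers.

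The main test was edgeR's quasi-likelihood F-test after filterByExpr and TMM scaling (edgeR 4.0.16, R 4.3.3; group as the only term, Benjamini-Hochberg adjustment over all 17537 genes). Fold changes are IgG over control. Pair changes subtract the log2 CPM of the control from that of the IgG library (prior count 2). Single values were compared by exact permutation and sign-flip tests (two-sided). Nuclear copies were found with BLAST 2.17.0 (at least 90% identity over 50 bases) among annotated transcripts, since no genome sequence was used. Replicate numbers pair the libraries, because the labels give same-numbered libraries the same date; their deviations from the group means correlated at 0.20 to 0.38 across genes. No 2 libraries of a group agreed within sampling noise (chi-square per degree of freedom at least 5.00).

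The tests were checked on simulated data with 200 changed genes. Apart from a GC trend set in part of it, the simulation gave both groups the same spread, unlike these data. It therefore does not show how the tests act when the IgG libraries differ more than the controls. Genes and lists were chosen with earlier results of these data known. All 37 members were named or counted; for each list the 2 highest and 2 lowest of at least 10 CPM were named. Alternatives were the replicate block, DESeq2 1.42.0, other scalings and filters, a GC and length correction (lowess, span 0.3) and leaving out libraries or pairs. The omission of IgG libraries 1 and 3 and the removal of nuclear copies were added after seeing the data.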

Additional observations from a re-analysis of the deposited data

Results flagged for a closer look

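Of 124 groups of 4 libraries examined for a sample far from the others, 3 held one, where chance gives about 1 in 20. mt-Nd3 in control library 4 was at 128 CPM, while the other controls were at 153 to 156 CPM. mt-Tt in control library 2 was at 2.07 CPM, while the other controls were at 1.42 to 1.49 CPM. The count of mt-Ts1 relative to mt-Co1 in control library 4 was 6.29%, while the other controls were at 7.87% to 7.98%. The pair change of mt-Ts1 in pair 4, 0.80, rests in part on this control library, which was the lowest control at 469 CPM. IgG library 4, at 814 CPM, was above every control.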

How the results depend on the processing

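Over the 37 genes and all settings, 803 of 849 alternative values had the sign of the reported log2 fold change and its side of the adjusted threshold, 46 had the opposite sign and 0 passed the adjusted threshold. Of the 46, 27 came with IgG libraries 1 and 3 left out, where the log2 fold changes were mt-Tf -0.075, mt-Rnr1 -0.20, mt-Tv -0.23, mt-Rnr2 -0.27, mt-Tl1 -0.45, mt-Nd1 -0.22, mt-Ti -0.040, mt-Tq -0.085, mt-Tm -0.34, mt-Nd2 -0.24, mt-Co1 -0.094, mt-Co2 -0.028, mt-Tk -0.011, mt-Atp8 -0.27, mt-Atp6 -0.17, mt-Co3 -0.041, mt-Tg -0.035, mt-Nd3 -0.10, mt-Tr -0.66, mt-Nd4l -0.50, mt-Nd4 -0.32, mt-Tl2 -0.068, mt-Nd5 -0.38, mt-Nd6 -0.19, mt-Te -0.11, mt-Cytb -0.20 and mt-Tp -0.090. All 4 controls stay in that setting, which leaves controls 1 and 3 without a partner, and of these 27 genes 14 were lower and 3 (mt-Rnr1, mt-Ti and mt-Tq) were higher with IgG in both pair 2 and pair 4. With these 2 libraries left out, the median of the mRNAs was -0.20, the differences of the mRNA and rRNA shares were -0.268 and -0.0082 percentage points, that of the mt-Nd6 share was -0.038 points and that of the log2 ratio of rRNA to mRNA was -0.061, and 1 gene passed the adjusted threshold, 80 genes the criterion and 0 members the criterion. The other opposite signs were of genes with values near 0. They were mt-Tm -0.0094, mt-Td -0.047 and mt-Tt -0.075 with total counts alone, mt-Td -0.021 with the GC and length correction, mt-Td -0.060 and mt-Tt -0.073 with that correction and the replicate block, mt-Tt -0.032 with the replicate block alone, and mt-Tt -0.015 with at least 10 counts in every library. When each library or pair was left out in turn, mt-Tm ran from -0.19 to 0.24, mt-Td ran from -0.0042 to 0.13, mt-Tl2 ran from -0.023 to 0.20 and mt-Tt ran from -0.27 to 0.15. The replicate block gave 69 genes past the adjusted threshold and 320 genes and 6 members past the criterion. DESeq2 gave 45, 237 and 2, a filter of at least 1 count gave 4, 284 and 7, and the block with the GC and length correction gave 198, 337 and 6, against 0, 148 and 1 in the reported fit. In the leave-outs the genes past the adjusted threshold ran from 0 to 6. Those past the criterion ran from 56 (without replicate 3) to 610 (without IgG replicate 4). Members past the criterion ran from 0 to 15, with 15 without IgG replicate 4 and 8 without IgG replicate 2, where 348 genes passed it. mt-Ts1 met the criterion in 3 of these 12 leave-outs, those of IgG replicate 2, IgG replicate 4 and pair 2. The median of the mRNAs ran from 0.40 (without replicate 3) to 0.99 (without IgG replicate 4), and the share differences from 0.580 to 1.74 points for mRNA and from 0.0245 to 0.0644 points for rRNA. The difference of the log2 ratio of rRNA to mRNA ran from 0.097 (without IgG replicate 1) to 0.310 (without IgG replicate 4), and that of the mt-Nd6 share ran from 0.033 (without IgG replicate 3) to 0.272 points (without replicate 2). The causes were not tested. Exact sign-flip tests within pairs, which treat the replicate as a block, could not go under p = 0.125 with 4 pairs and so say nothing of the stability of the shares and ratios. Depth limits only the sparse tRNA rows, with as few as 5 counts in a library.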
